A study of Mus musculus with 8 samples.

Results

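The MHC class I presentation genes described here were taken by a fixed list of gene symbols, and the rule uses no measured value. The list was drawn up with earlier results of these data known, so its counts beside those of all genes are a description. The list holds the class I heavy chains H2-K1 and H2-D1, their light chain B2m, the peptide transporter subunits Tap1 and Tap2, the loading chaperone tapasin (Tapbp), the immunoproteasome subunits Psmb8, Psmb9 and Psmb10, and the class I transactivator Nlrc5. All 10 were found among the 33641 gene symbols of the series, and all 10 were among the 14964 genes tested, those with at least 1 TPM (a transcript level corrected for length and for the library total) in at least 4 libraries. Their lowest value in any library was 9.37 TPM, so none passed this filter through 1 group alone.

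Class I molecules display peptides from a cell's own proteins to CD8 T cells. The proteasome cuts these proteins, and in cells exposed to interferon the immunoproteasome subunits take the place of the constitutive catalytic subunits. TAP then pumps the peptides into the endoplasmic reticulum, where tapasin and other chaperones load them onto a heavy chain paired with B2m. Endothelial cells are known to express class I at a high level, and NLRC5, IRF1 and NF-kappa B are known activators of these genes.

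The study compared tumor-associated endothelial cells of control mice and of mice lacking 1 Foxf1 allele in endothelial cells, to ask what the transcription factor FOXF1 does in tumor vessels. Lewis lung carcinoma (LLC) cells, a mouse lung cancer line, had been injected into the lung, tumors were microdissected at day 21, and CD45-CD31+ cells were sorted by FACS for RNA-seq. The 8 libraries were 4 from control mice (C1 to C4) and 4 from endFoxf1+/- mice (H1 to H4), numbered in order of deposit, so the numbers pair no control with an endFoxf1+/- library; whether libraries shared a litter or a sort day is not given. The endFoxf1+/- mice carried Pdgfb-CreER, whose Cre is driven by an endothelial promoter and activated by tamoxifen, and 1 floxed Foxf1 allele, from which exon 1 is removed. Controls were littermates with the floxed allele or the Cre alone, although the methods for tumor injection name C57Bl/6 wild-type mice as controls, and which of these gave each library is not stated. All were young adults, every group carried LLC tumors, and whether cells of several mice were pooled is not given. Where a library is not 1 mouse, p-values measure only the spread between these samples. The depth behind a TPM value is not known, so no counting error is given.

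Foxf1, the targeted gene, was at 213, 285, 296 and 331 TPM in C1 to C4 and at 177, 203, 14 and 105 TPM in H1 to H4. Every endFoxf1+/- library was below every control library, with a log2 difference of −1.68 (SE 0.72, Benjamini-Hochberg adjusted p = 0.790 by limma). Relative to the endothelial markers described next, the groups overlapped and the difference was −0.50 (SE 0.64). H3 and H4 stood apart from the other libraries. In H3, the geometric mean TPM of 20 endothelial markers was 5.39% of the control mean, and Pecam1 (the CD31 of the sort) was at 77.5 TPM against 1061 to 1505 in controls. The H3 sums of 4 leukocyte, 12 myeloid and 10 fibroblast and pericyte markers were 15.7, 4.15 and 13.6 times the control means. Lyz2 held much of the myeloid sum, at 6870 of 11114 TPM in H3 and 2395 of 2680 TPM in the control mean. The other myeloid markers were at 865% to 4047% of their control means in H3. The largest parts of the fibroblast and pericyte sum were Col3a1, Dcn and Lum (556, 533 and 183 TPM). The pericyte marker Rgs5 was at 0.602 TPM in H3 against 10.7 to 18.9 TPM in controls. In H4, the endothelial level was 56.4% of the control mean, and 1 gene, Gm20594, took 21.8% of all TPM, against 5.11% to 11.3% in the other 7 libraries. The sum of 9 epithelial markers was 23107 TPM in H4 and 30669 TPM in control C3, against 1557 to 10260 TPM in the others. H1 and H2 had endothelial levels of 107% and 109%. Their leukocyte sums, 104 and 115 TPM, were above the control range of 33.4 to 77.0 TPM. Their proliferation sums, 140 and 135 TPM, were above the control range of 68.2 to 83.2 TPM, and their erythroid and platelet sums, 591 and 577 TPM, were below that of 842 to 1707 TPM. Fibroblast and pericyte sums were 197 TPM in H1 and 312 TPM in H4, above the control maximum of 145 TPM. In that list Col3a1, Dcn and Lum were above every control in all 4 endFoxf1+/- libraries, as were 2.73% of all tested genes. Rgs5 was below every control in all 4, against 2.31%, at 3.71, 3.73 and 6.66 TPM in H1, H2 and H4. Over the 8 libraries 7 of the 10 were higher in endFoxf1+/- and 3 lower, where 68.0% of all tested genes were lower. The part of these markers in the class I values was not tested. Because H3 and H4 stood apart, values are given with and without H3, and for the main results also without both H3 and H4. In these bulk samples, fewer cells of a type and less RNA per cell cannot be told apart.

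The upstream sequences of the genes are shown because these genes are known to share elements for interferon and NF-kappa B, and because their levels moved together over the libraries. Many genes outside the list moved with them too. RefSeq promoter windows (GRCm38.p6, 250 bases before the gene start to 50 after it) matched 8 of the 10 genes, and the windows of Psmb9 and Tap1, which lie head to head on opposite strands, share 275 bases. Tap2 and Nlrc5 had no entry. The motifs searched on both strands were GAAANNGAA (the core of the interferon response element), TTCNNNGAA (GAS, the gamma interferon activated site), GGGNNTTCC (the kappa B site of the class I enhancer) and CCAAT (the Y box). The kappa B letters were in the windows of H2-K1 and H2-D1 and in 5.82% of all 32851 promoters, the interferon response core in that of B2m and in 8.56% of all, and GAS in that of Psmb8 and in 8.30% of all. RefSeq places the starts of H2-D1, Psmb8, Tapbp and Psmb9 inside the genes as GENCODE annotates them, so their windows lie downstream of the GENCODE start. The Y box was in 6 of the 8 and in 37.4% of all promoters, so it is common. A match describes the letters in the window only. Other spellings of the same elements were not searched. A window without a match, such as that of H2-K1 or H2-D1 for interferon or of B2m for kappa B, can therefore still hold such an element. The 250 bases before the RefSeq start of the 4 genes with one of the first 3 motifs are printed 5′ to 3′ on the gene's strand with that motif in capitals, for H2-K1 (chr17:34000348-34000597, minus strand), H2-D1 (chr17:35262844-35263093, plus strand), B2m (chr2:122147437-122147686, plus strand) and Psmb8 (chr17:34197945-34198194, plus strand).
H2-K1: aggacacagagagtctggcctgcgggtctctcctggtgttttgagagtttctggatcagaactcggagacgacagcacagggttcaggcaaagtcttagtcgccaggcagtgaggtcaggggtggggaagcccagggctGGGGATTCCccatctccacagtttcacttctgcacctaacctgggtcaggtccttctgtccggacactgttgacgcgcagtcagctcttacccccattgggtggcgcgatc
H2-D1: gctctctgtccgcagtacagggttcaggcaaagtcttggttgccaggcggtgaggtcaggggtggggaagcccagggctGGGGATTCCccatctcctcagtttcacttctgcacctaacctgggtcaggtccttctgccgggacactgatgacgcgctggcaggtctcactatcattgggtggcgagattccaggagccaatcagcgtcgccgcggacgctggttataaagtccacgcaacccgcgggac
B2m: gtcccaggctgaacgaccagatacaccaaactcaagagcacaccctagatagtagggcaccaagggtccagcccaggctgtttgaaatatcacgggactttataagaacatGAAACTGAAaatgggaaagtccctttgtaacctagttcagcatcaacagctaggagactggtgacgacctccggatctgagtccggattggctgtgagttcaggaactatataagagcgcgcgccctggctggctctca
Psmb8: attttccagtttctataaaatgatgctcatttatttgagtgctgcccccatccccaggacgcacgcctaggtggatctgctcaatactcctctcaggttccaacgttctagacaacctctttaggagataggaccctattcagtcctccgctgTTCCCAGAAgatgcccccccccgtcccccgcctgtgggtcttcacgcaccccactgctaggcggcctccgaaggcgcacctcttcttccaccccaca
The H2-K1 and H2-D1 sequences share a run of 47 identical bases that includes the kappa B letters, the one place where this motif lies in either. The B2m and Psmb8 motifs are single matches.

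All 10 genes had a lower mean in endFoxf1+/- libraries, as had 68.0% of all tested genes on the log2 scale. None of the 10 passed the test after adjustment over all genes. H2-D1, a classical heavy chain, was at 2379, 2355, 1993 and 2012 TPM in C1 to C4 and at 1679, 1716, 855 and 1140 TPM in H1 to H4. It was the one gene of the 10 whose groups did not overlap, since H1 and H2 were below C3 as well. The log2 difference was −0.75 (SE 0.33). H2-K1, the other classical heavy chain, was at 2546, 1561, 1368 and 1752 TPM in controls and at 1641, 1225, 401 and 709 TPM in endFoxf1+/- libraries. Here H1 lay inside the control range and the other 3 below it, with a log2 difference of −1.01 (SE 0.46). B2m, the light chain common to all class I molecules and the most abundant of the 10 transcripts, was at 12275, 9579, 7799 and 11018 TPM in controls and at 9560, 8574, 4824 and 5477 TPM in endFoxf1+/- libraries. H1 and H2 were inside its control range, H3 and H4 below it, and the log2 difference was −0.56 (SE 0.48). B2m stood in a ratio of 2.32 to 2.93 to the summed heavy chains in controls and of 2.88, 2.92, 3.84 and 2.96 in H1 to H4. The H2-D1 to H2-K1 ratio overlapped between groups, at 0.934 to 1.51 in controls and 1.02 to 2.13 in endFoxf1+/- libraries. Of the 50-base words in their annotated transcripts, H2-K1 shared 9.63% with 24 other genes and H2-D1 12.8% with 103. The genes that shared most with each were other class I heavy chains. The separate levels of H2-K1 and H2-D1 are uncertain to that extent, while B2m shared 0%.

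**Figure D1:**
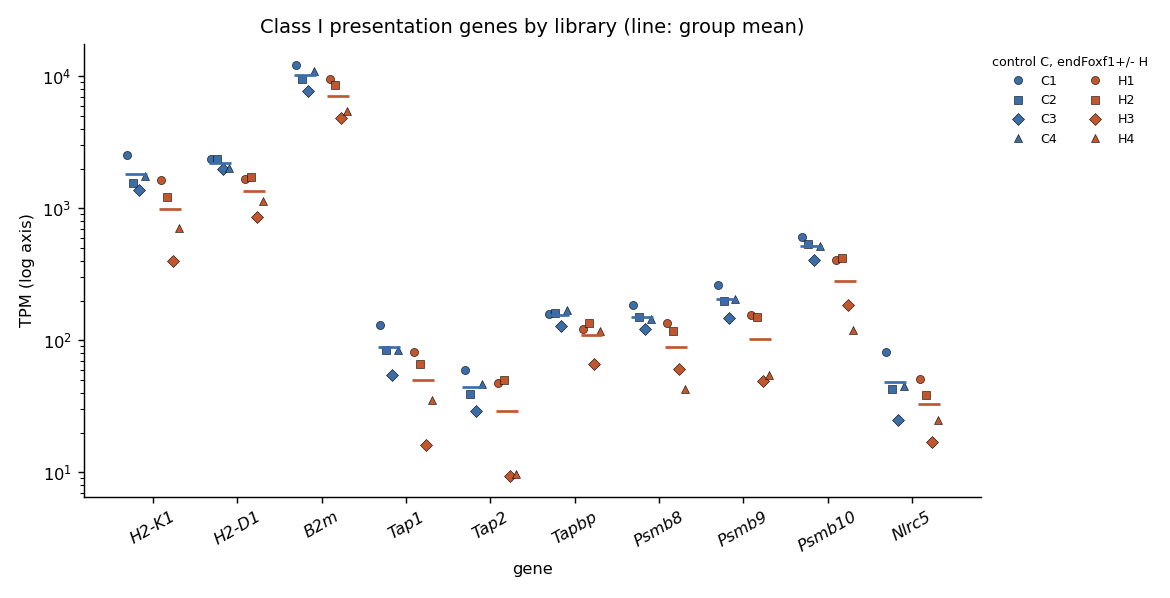
TPM (log axis) of the 10 class I presentation genes in each library, blue for the 4 control and orange for the 4 endFoxf1+/- libraries, with 1 symbol per library number and a line at each group mean. H3 and H4 hold the 2 lowest values of 9 genes, while H1 and H2 lie close to the control libraries. In Nlrc5 the lowest control, C3, is level with H4, and H2-D1 is the gene with no overlap between groups.

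The transport and loading genes were lowest in H3 and H4. Tap1, an ATP-binding subunit of the transporter, was at 132, 83.7, 54.8 and 84.1 TPM in controls and at 81.5, 65.7, 16 and 35.5 TPM in H1 to H4. H1 and H2 lay inside the control range, and the log2 difference was −0.99 (SE 0.49). Tap2, its partner subunit, was at 60.0, 39.4, 29.4 and 46.8 TPM in controls and at 47.2, 49.8, 9.37 and 9.68 TPM in endFoxf1+/- libraries. H1 and H2 were above 3 of the 4 controls. Its log2 difference was −0.93 (SE 0.57), and 0.19 without H3 and H4. Tapbp, which holds the empty heavy chain at the transporter, was at 159, 160, 129 and 169 TPM in controls and at 123, 135, 66.4 and 117 TPM in endFoxf1+/- libraries. H2 alone reached into its control range, and the log2 difference was −0.52 (SE 0.26). Nlrc5, which acts with RFX factors at class I promoters, was at 81.1, 42.4, 25.0 and 45.0 TPM in controls and at 50.5, 38.5, 17.1 and 25.0 TPM in endFoxf1+/- libraries. Its groups overlapped for 3 of the 4 endFoxf1+/- libraries, with a log2 difference of −0.54 (SE 0.42).

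The 3 immunoproteasome subunits were the genes of the 10 with an unadjusted p under 0.05, where 2.77% of all tested genes were lower at that p. Psmb9 (LMP2) was at 264, 200, 149 and 207 TPM in controls and at 156, 151, 48.8 and 54.7 TPM in endFoxf1+/- libraries. H1 and H2 were just above C3, the lowest control, and below the other 3. The log2 difference was −1.16 (SE 0.42), the largest of the 10. Psmb10 (MECL-1) was at 606, 540, 402 and 519 TPM in controls and at 403, 420, 187 and 119 TPM in endFoxf1+/- libraries. Again C3 was the control that overlapped, and the log2 difference was −1.04 (SE 0.41). Psmb8 (LMP7) was at 187, 149, 122 and 145 TPM in controls and at 135, 118, 60.7 and 43.0 TPM in endFoxf1+/- libraries. Only H1 entered its control range, with a log2 difference of −0.88 (SE 0.37). These 3 genes share 0.227% (Psmb8) or 0% (Psmb9, Psmb10) of their 50-base words with other genes.

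Among the 10 genes the median log2 difference was −0.91, against −0.17 over all tested genes, of which 10182 were lower. By limma none of the 10 passed an adjusted p of 0.05 (adjusted p from 0.790 to 0.797), as for 0% of all tested genes, whose smallest adjusted p was 0.305. An unadjusted p under 0.05 with a lower level was reached by 3 of 10, against 2.77% of tested genes, and 1 of 10 had every endFoxf1+/- library below every control, against 2.31%. Without H3, all 10 were still lower, with a median of −0.55 against 0.01 over all genes, of which 48.3% were lower. H2-D1 (−0.55, SE 0.22) and Psmb9 (−0.87, SE 0.37) then had an unadjusted p under 0.05, against 2.35% of tested genes, and H2-D1 alone did not overlap, against 2.60%. None of the 10 passed the adjusted test, against 0.00668% of tested genes. The median was −0.24 without both H3 and H4, against 0.14 over all genes, and H2-D1 had a difference of −0.36 (SE 0.14). Without H3 alone, H2-K1 was at −0.64, B2m −0.39, Tap1 −0.55, Tap2 −0.55 and Tapbp −0.29. Psmb8 was then at −0.75, Psmb10 at −0.91 and Nlrc5 at −0.28. Without both H3 and H4, H2-K1 was at −0.31, B2m −0.15, Tap1 −0.20, Tap2 0.19 and Tapbp −0.25. Psmb8 was then at −0.24, Psmb9 −0.38, Psmb10 −0.31 and Nlrc5 −0.01. Together the 10 genes made up 1.87%, 1.47%, 1.21% and 1.60% of all TPM in C1 to C4 and 1.39%, 1.25%, 0.648% and 0.773% in H1 to H4. H1 and H2 were thus inside the control range, and H3 and H4 below it.

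Relative to endothelial transcripts, the direction depended on H3. For this the mean log2(TPM + 1) of the 20 endothelial markers was taken from each library. These markers can themselves differ between groups. On TPM, Cldn5 was below every control in all 4 endFoxf1+/- libraries, and Emcn was above every control in 3. The study reported lower Claudin-5 and VE-cadherin transcripts in endFoxf1+/- tumor endothelial cells. Whether the reference carries a group difference of its own was not tested. With all 8 libraries, all 10 genes were higher in endFoxf1+/-, with a median of 0.27 against 1.0 over all tested genes, of which 2.84% were lower, and 0 of 10 passed the test. The range was from 0.01 for Psmb9 (SE 0.74) to 0.65 for Tapbp (SE 0.76), and the intervals of all 10 spanned 0. No gene of the 10 had a lower level with an unadjusted p under 0.05 (0.0134% of tested genes did) or lay below all controls (0.0468%), and 0.00668% of tested genes passed the adjusted test. The mean of the 10 genes minus that of the markers was 0.01, −0.33, −0.48 and −0.35 in C1 to C4 and −0.53, −0.68, 2.20 and −0.80 in H1 to H4. H1, H2 and H4 were thus below every control and H3 was above all of them.

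**Figure D2:**
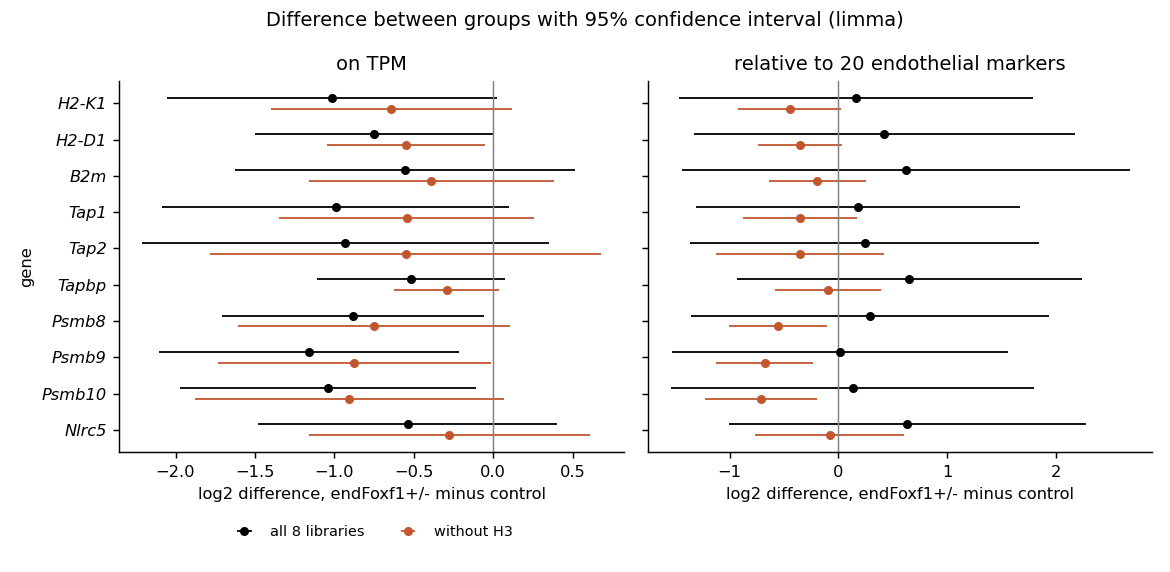
The log2 difference, endFoxf1+/- minus control, of each of the 10 genes with its 95% confidence interval from limma, on TPM (left) and relative to 20 endothelial markers (right), for all 8 libraries (black) and without H3 (orange). On TPM every estimate is below 0 in both sets; relative to the markers the estimates are above 0 with H3 and below 0 without it.

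Without H3, all 10 genes were lower relative to the markers, with a median of −0.36 against 0.21 over all tested genes, of which 26.4% were lower. Psmb9 (−0.68, SE 0.19), Psmb10 (−0.71, SE 0.23) and Psmb8 (−0.55, SE 0.20) had an unadjusted p under 0.05, against 1.54% of tested genes. These 3 and H2-K1 (−0.45, SE 0.21) were below every control in H1, H2 and H4, against 1.86% of tested genes. The relative log2 level of Psmb10 was 0.49, 0.40, 0.22 and 0.27 in C1 to C4 and −0.10, −0.06 and −0.93 in H1, H2 and H4, but 3.0 in H3. Psmb9 was at −0.70, −1.03, −1.21 and −1.05 in controls, at −1.46, −1.54 and −2.04 in H1, H2 and H4, and at 1.09 in H3. None of the 10 passed the adjusted test (adjusted p of at least 0.642), against 0.00668% of tested genes. Tapbp (−0.10, SE 0.21) and Nlrc5 (−0.08, SE 0.30) were the 2 nearest to 0. Without both H3 and H4 the median was again −0.36, against 0.02 over all tested genes, of which 46.3% were lower. Tap2 was then the one gene of the 10 above 0, at 0.07.

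The immunoproteasome subunits were also set against the constitutive subunits whose places they take, as ratios of TPM within a library. The log2 differences, the test and the shares of other genes below used TPM + 1. Psmb8 over Psmb5 was 0.996, 1.05, 0.863 and 0.769 in C1 to C4 and 0.601, 0.738, 0.349 and 0.447 in H1 to H4. Psmb9 over Psmb6 was 1.03, 0.806, 0.600 and 0.818 in controls and 0.497, 0.585, 0.189 and 0.452 in endFoxf1+/- libraries. Psmb10 over Psmb7 was 5.87, 5.36, 3.97 and 4.64 in controls and 3.64, 3.88, 1.52 and 2.11 in endFoxf1+/- libraries. In each of the 3 ratios all 4 endFoxf1+/- libraries were below all 4 controls, H2 coming nearest to them. The means were 0.919 ± 0.127 and 0.534 ± 0.171 for Psmb8 over Psmb5, 0.814 ± 0.177 and 0.431 ± 0.170 for Psmb9 over Psmb6, and 4.96 ± 0.832 and 2.79 ± 1.15 for Psmb10 over Psmb7 (SD, n = 4 libraries a group). The log2 differences were −0.82, −1.0 and −0.92, each with a 2-sided exact permutation p of 0.0286 (0.0286 after Benjamini-Hochberg adjustment over the 3), the smallest that 4 against 4 can give. Of all other tested genes, 1.15%, 1.29% and 1.25% had a ratio to Psmb5, Psmb6 and Psmb7 that was lower in every endFoxf1+/- library. Without H3 the differences were −0.64, −0.65 and −0.66, with no overlap, and 1.28%, 1.47% and 1.36% of all other tested genes did not overlap in that direction. Without both H3 and H4 they were −0.45, −0.56 and −0.38, again with no overlap, but with only 2 libraries left this held for 5.99%, 10.7% and 6.33% of all other tested genes. The exact permutation p is then 0.0571 and 0.133, the smallest these numbers of libraries allow.

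**Figure D3:**
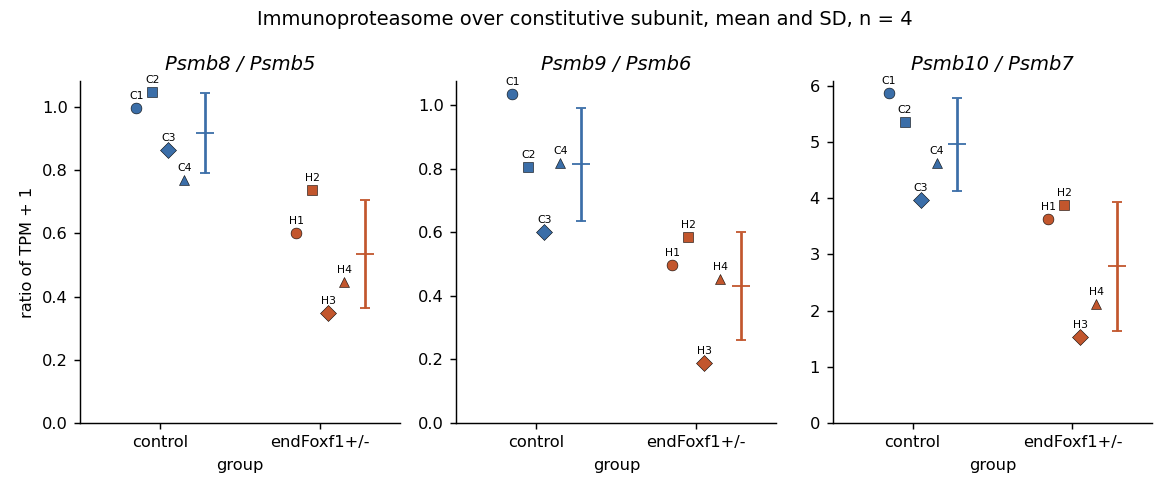
Ratio of TPM of each immunoproteasome subunit to the constitutive subunit it replaces, by library. The mean and SD of 4 libraries stand beside each group. The axes start at 0, and the axis label names TPM + 1 although the points are ratios of TPM. In all 3 panels the highest endFoxf1+/- library, H2, lies below the lowest control, with a narrow gap (0.585 against 0.600 for Psmb9 over Psmb6).

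The denominators were not ordered in the same way. Psmb5 was at 141 to 189 TPM in controls and 96.3 to 224 TPM in endFoxf1+/- libraries, with a log2 difference of −0.06 (SE 0.29). Psmb6 was at 248 to 255 TPM in controls and at 314, 258, 258 and 121 TPM in H1 to H4, so that 3 of 4 were above every control. Psmb7 was at 101 to 112 TPM in controls and at 111, 108, 123 and 56.5 TPM in endFoxf1+/- libraries. The 14 genes of the constitutive proteasome core summed to 2502 to 2807 TPM in controls and to 3135, 2768, 2833 and 1700 TPM in H1 to H4, so H4 was low in both kinds of subunit. Over these 14 genes 11 were lower, 0 at an unadjusted p under 0.05, and the median log2 difference was −0.07 (11 lower and a median of −0.14 without H3). The share of all tested genes that were lower was 68.0%, and 48.3% without H3. When the mean of the 14 was the reference for the whole table, a comparison chosen after the values were seen, all 10 class I genes were lower with a median of −0.85, against −0.11 over all genes, of which 62.1% were lower. Psmb8 (−0.83, SE 0.29), Psmb9 (−1.10, SE 0.37) and Psmb10 (−0.98, SE 0.33) had an unadjusted p under 0.05, against 2.25% of tested genes with a lower level. These 3, H2-K1 and H2-D1 did not overlap between groups, against 2.33%. Without H3 the median on this reference was −0.44 against 0.13 over all genes, and without both H3 and H4 it was −0.40.

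The other peptide loading and trimming genes were mixed in direction. Of 11, 5 were lower and 6 higher, 0 had an unadjusted p under 0.05, and the median log2 difference was 0.03. Without H3, 3 were lower and 8 higher, with a median of 0.09 and 1, Lnpep, higher at an unadjusted p under 0.05, against 4.83% of all tested genes. Calr, a chaperone of the heavy chain, was at 317 to 470 TPM in controls and 313 to 449 TPM in endFoxf1+/- libraries (−0.0038, SE 0.24). Psme1 and Psme2, the proteasome activator subunits that interferon induces, differed by −0.24 (SE 0.29) and −0.63 (SE 0.34), and Hspa5, an endoplasmic reticulum chaperone, by 0.16 (SE 0.33). Psme2 was at 380, 334, 296 and 340 TPM in controls and at 329, 265, 234 and 107 TPM in endFoxf1+/- libraries, below all controls in 3 of 4. Lnpep, an aminopeptidase, was at 30.8 to 36.7 TPM in controls and 41.3 to 52.6 TPM in endFoxf1+/- libraries (0.41, SE 0.19), and Psme3, another proteasome activator, at 24.9 to 26.9 and 28.3 to 35.3 TPM (0.22, SE 0.19). These 2 were above every control in all 4 endFoxf1+/- libraries, as were 2.73% of all tested genes, and no gene of the 11 was below every control in all 4, against 2.31%. Tapbpl, a relative of tapasin, had the lowest log2 difference of the 11 (−0.99, SE 0.46), at 41.3, 36.0, 31.4 and 50.2 TPM in controls and at 38.0, 30.3, 7.03 and 16.2 TPM in H1 to H4. Relative to the endothelial markers and without H3, Psme2 (−0.47, SE 0.18) and Tapbpl (−0.35, SE 0.18) were below every control in H1, H2 and H4, as were 1.86% of all tested genes.

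The other class I heavy chains were lower in 11 of 11 tested genes, of 13 listed, with a median of −0.94, where 68.0% of all tested genes were lower. Cd1d1, which presents lipids, was the one with an unadjusted p under 0.05 (−1.16, SE 0.46; 2.77% of all tested genes were lower at that p), at 16.3 to 22.4 TPM in controls and at 14.6, 17, 3.95 and 3.71 TPM in H1 to H4. H2-Q7 was at 339 to 1062 TPM in controls and at 544, 399, 53.1 and 152 TPM in endFoxf1+/- libraries (−1.49, SE 0.69). H2-Q6 was at 168 to 639 TPM in controls and at 340, 207, 23.2 and 86.0 TPM in endFoxf1+/- libraries (−1.49, SE 0.76). H2-T23, the mouse Qa-1 gene, was at 142 to 548 TPM in controls and at 336, 214, 51.8 and 44.5 TPM in endFoxf1+/- libraries (−1.30, SE 0.71). All 3 overlapped through H1 and H2. H2-Q7 shares 26.4% of its 50-base words with other genes, H2-Q6 32.0% and H2-T23 13.6%, so reads could have been split between paralogs. Without H3, 11 of 11 were lower, with a median of −0.43 and no unadjusted p under 0.05, where 48.3% of all tested genes were lower. Relative to the endothelial markers, 3 were lower and 8 higher, with a median of 0.23, where 2.84% of all tested genes were lower. Without H3, 9 were lower and 2 higher on that reference, with a median of −0.23, where 26.4% of all tested genes were lower.

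Of 19 regulators of class I, 18 were lower with all 8 libraries, where 68.0% of all tested genes were lower, and the median was −0.43. Rela, an NF-kappa B subunit, was at 70.6 to 89.6 TPM in controls and at 65.9, 52.1, 27.5 and 61.9 TPM in endFoxf1+/- libraries, all below the controls (−0.70, SE 0.29), as were 2.31% of all tested genes. It was 1 of 2 regulators with a lower level at an unadjusted p under 0.05, against 2.77%. Irf1 was at 162 to 251 TPM in controls and at 172, 153, 50.9 and 122 TPM in endFoxf1+/- libraries (−0.77, SE 0.38). Of 12 interferon-induced genes, 12 were lower with a median of −0.77. The 4 with an unadjusted p under 0.05, against 2.77% of all tested genes with a lower level, were the guanylate-binding proteins Gbp3 (−0.97) and Gbp7 (−1.05), the immunity-related GTPase Igtp (−1.13) and the virus-tethering protein Bst2 (−0.88). Without H3, the medians were −0.18 for the regulators, 11 of 19 being lower, and −0.27 for the interferon-induced genes, 11 of 12 being lower, with an unadjusted p under 0.05 for 1 regulator (Rela) and for 0 interferon-induced genes. Of all tested genes, 48.3% were then lower, and 2.35% at that p. Relative to the endothelial markers, all 19 regulators and all 12 interferon-induced genes were higher, with medians of 0.74 and 0.40. On that reference 2.84% of all tested genes were lower. Without H3, 9 of 19 and 7 of 12 were lower relative to the markers, with medians of 0.02 and −0.08, where 26.4% of all tested genes were lower. None of these genes passed the adjusted test.

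**Figure D4:**
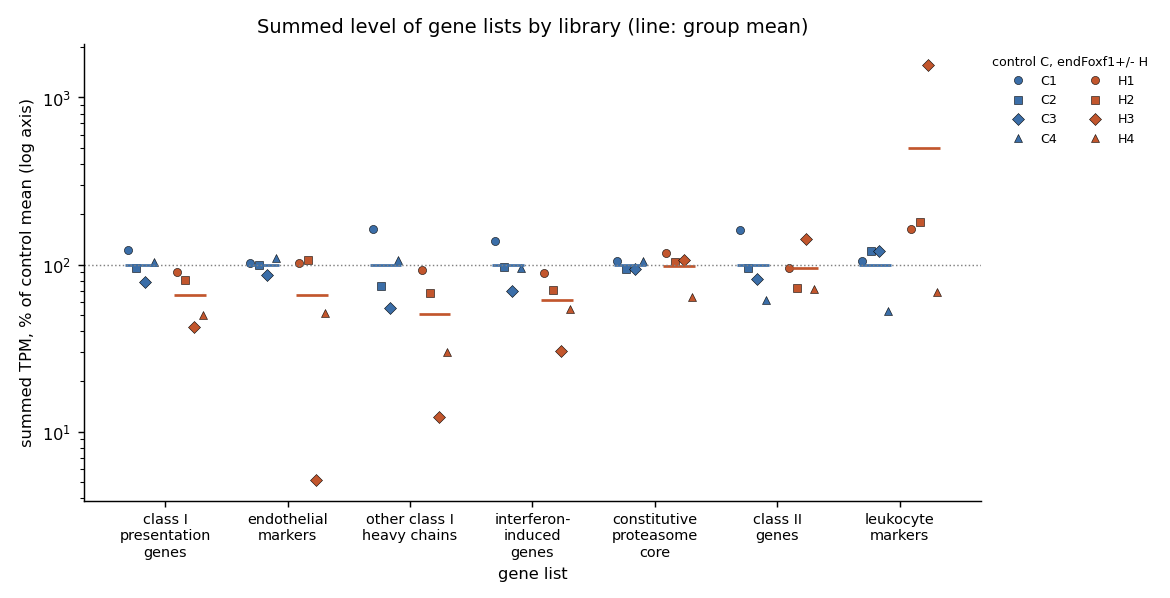
Summed TPM of 7 gene lists in each library as a percentage of the control mean (log axis), blue for control and orange for endFoxf1+/- libraries, with a line at each group mean and a dotted line at 100%. H3 and H4 are low for the class I presentation genes, the other heavy chains and the interferon-induced genes; H3 is lowest for the endothelial markers (743 TPM against 12545 to 15835 TPM in controls) and highest for the leukocyte markers; the class II genes overlap between groups.

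Class II genes present extracellular antigen and are expressed by myeloid and B cells and also by lung endothelium. Their sum in H3 was inside the control range and 1.42 times the control mean, where the leukocyte marker sum was 15.7 times its own. The class II sum was 2423 to 6422 TPM in controls and 3786, 2871, 5622 and 2818 TPM in H1 to H4, while the class I sum of H3 was the lowest of the 8 libraries. Of 7 class II genes, 6 were lower and 0 had an unadjusted p under 0.05, with a median of −0.26. Without H3, 7 of 7 were lower, with a median of −0.37. Of all tested genes, 68.0% were lower with all libraries and 48.3% without H3. H2-Aa, a class II alpha chain and the most abundant of the 7, was at 679 to 1647 TPM in controls and at 1043, 1095, 2504 and 1325 TPM in H1 to H4 (0.22, SE 0.41), so that H3 was above every control. It was the one higher gene of the 7. Cd74, the invariant chain, was at 775 to 2242 TPM in controls and 825 to 1444 TPM in endFoxf1+/- libraries (−0.19, SE 0.38). The part of other cell types in the class I values of H3 was not tested. Sftpc, an alveolar epithelial marker, was at 5483 to 26986 TPM in controls and 1130 to 19867 TPM in endFoxf1+/- libraries, and its correlation with the mean of the 10 genes was 0.25 over the 8 libraries and −0.43 without H3.

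The 10 genes varied together over the libraries, including the controls, where C1 was the highest for 9 of them and C3 the lowest for all 10. The Pearson correlation of log2(TPM + 1) between pairs of the 10 had a median of 0.92 over 45 pairs and 8 libraries (0.70 to 0.99), and of 0.89 without H3. These libraries share the group difference and the differing marker levels of H3 and H4, so the correlations are a description. Outside the list, the 10 genes most like the mean of the class I genes over 8 libraries were Il17rc, Trim21, Cdk11b, Ripk1, Prkar2a, Stk3, Csn1s1, Gm12276, Supt6 and Gm5431, with correlations of 0.984 to 0.993. Over the 7 libraries without H3, 9 of the 10 were RP23-427M23.5, Trim21, Rcn1, Cdk11b, Mob3c, Zfp189, Ccpg1, Gm12276 and Il17rc, with 0.987 to 0.993. Il17rc, Trim21, Cdk11b and Gm12276 were in both. Trim21, a cytosolic antibody receptor, was at 39.6, 28.8, 23.3 and 29.1 TPM in controls and at 28.6, 24.1, 9.91 and 9.68 TPM in endFoxf1+/- libraries. Psmb9 was the class I gene closest to the mean over 8 libraries (0.994) and Tapbp the farthest (0.868). Foxf1 itself had a correlation of 0.83 over 8 libraries and 0.69 without H3. Gm20594 had one of −0.59 over 8 libraries and −0.94 without H3. Its share of TPM was lowest in C1 (5.11%), the highest control for 9 of the class I genes, was 11.3% in C3, the lowest control for all 10, and was highest in H4 (21.8%). Its part in the class I values was not tested.

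In the genome (GENCODE vM21, GRCm38), 7 of the 10 genes lie on chromosome 17, and 4 of those are neighbours. These are Psmb9 (chr17:34181987-34187764, minus strand), Tap1 (chr17:34187553-34197225, plus strand), Psmb8 (chr17:34197721-34201454, plus strand) and Tap2 (chr17:34203527-34216321, plus strand). H2-K1 (chr17:33996017-34000347, minus strand), Tapbp (chr17:33915899-33929292, plus strand) and H2-D1 (chr17:35262730-35267499, plus strand) flank them. B2m (chr2:122147686-122153083, plus strand), Psmb10 (chr8:105935735-105938444, minus strand) and Nlrc5 (chr8:94434356-94527272, plus strand) lie elsewhere. Genes on all 3 chromosomes were lower in endFoxf1+/- libraries on TPM. The annotated ends of Tap1 and Psmb9 overlap on opposite strands, and B2m, Tap2, Tapbp, Psmb8, Psmb10 and Nlrc5 also overlap another annotated gene. Whether the counting used strand is not given in the sources used here, so reads from such overlaps cannot be told apart.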

How the data were processed

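RNA-seq had been performed by the authors on CD45-CD31+ cells sorted from LLC tumors, with a Qiagen kit for RNA and Nextera XT libraries. For each of the 8 libraries the authors deposited TPM per gene symbol (each library sums to 1000000), so depth is unknown. The submitters' processing notes name TopHat, Cufflinks, Subread, DESeq2 and the builds GRCm38 and mm10, without versions or roles. Normalization to a total makes every value depend on the other genes of its library. Groups came from the sample labels.

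Genes that reached 1 TPM in 4 or more of the 8 libraries were fitted on log2(TPM + 1) with limma 3.58.1 (lmFit, eBayes with trend, 2-sided) in R 4.3.3, with Benjamini-Hochberg adjustment over all 14964 genes and a threshold of 0.05. A difference on this scale understates the change of low genes. The fit was repeated after subtracting the mean of 20 endothelial markers per library, and, chosen after the data were seen, of 14 constitutive proteasome genes. The 3 subunit ratios were compared on the log2 ratio of TPM + 1 by a 2-sided exact permutation test over 70 assignments. The fit was tested on simulated data. No 2 libraries held identical values (28 pairs).

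The class I genes, marker and pathway lists and motifs were chosen with earlier results of these data known. The text names all 10 class I genes, listed pathway genes with an unadjusted p under 0.05 in either fit, otherwise at most 3 per list by mean TPM, and the 10 genes most correlated with the class I mean; Trim21, Sftpc, Gm20594, Psme2, Psme3, Tapbpl and Lnpep were named after their values were seen. The values of 1 listed gene are not reported here. Alternatives were the pseudocount, the filter, the scaling, the variance model, library weights, the endothelial reference and leaving out libraries. Promoters came from RefSeq, coordinates from GENCODE vM21, in which 95.6% of symbols were found.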

Additional observations from a re-analysis of the deposited data

Results flagged for a closer look

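Among 46 sets of 4 values examined, 6 held a value whose gap to its nearest neighbour was an unusually large part of the range (0.831 to 0.913 of it, past the limit of Dixon's test). Chance gives about 1 in 20. All 6 were levels relative to the endothelial markers. In H3 these were H2-K1 at 4.10, H2-D1 at 5.19, B2m at 7.69, Tap1 at −0.46 and Nlrc5 at −0.38 on the log2 scale, each above the other 3 endFoxf1+/- libraries. In control C1, H2-K1 was at 2.56, above the other 3 controls at 1.93 to 2.03. The endothelial marker level that was subtracted is itself 5.39% of the control mean in H3. On TPM, none of the 10 genes held such a value.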

How the results depend on the processing

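On TPM the median log2 difference of the 10 genes, −0.91, was −0.55 to −1.20 with 1 library left out. It was −0.74 after quantile normalization and −0.72 after median-ratio scaling, which moved the median of all genes from −0.17 to −0.01. It was −0.23 with limma array weights, whose estimation did not converge (148 genes then passed, and Tap2 was 0.12 and Nlrc5 0.083), and −0.24 without H3 and H4 (3 genes passed, and Tap2 was 0.19). No alternative gave a class I gene an adjusted p under 0.05. A lower level at an unadjusted p under 0.05 was reached by 3 genes (2.77% of all), by 5 with median-ratio scaling (3.66%) or without a trend (2.78%), by 1 without H3 and H4 (2.25%), and by 0 to 7 with 1 library left out (0 without C1 or H4, where 1.62% and 2.37% of all did, and 7 without H1 or H2, where 5.93% and 7.18% did); 0 to 1 of all genes passed.

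Relative to the endothelial markers the median of 0.27 became −0.45 with array weights and −0.36 without H3 and H4, and was −0.36 to 0.65 with 1 library left out. Lower levels at an unadjusted p under 0.05 went from 0 genes (0.0134% of all) to 5 with array weights (4.12%), 5 without H3 and H4 (3.70%), and 0 to 3 with 1 library left out (3 without H3, 1.54%). Of all genes, 1 passed, 9 with a pseudocount of 5, 16 without the filter, 11 with array weights, 2 without H3 and H4, and 1 to 2 with 1 library left out. With array weights the values were −0.59 for H2-K1, −0.45 for H2-D1, −0.31 for B2m, −0.47 for Tap1, −0.26 for Tapbp, −0.47 for Psmb8, −0.55 for Psmb9, −0.46 for Psmb10 and −0.30 for Nlrc5. Without H3 and H4 they were −0.42, −0.47, −0.26, −0.32, −0.36, −0.36, −0.50, −0.43 and −0.13 in the same order. Without H3 alone they were −0.45, −0.35, −0.19, −0.35, −0.10, −0.55, −0.68, −0.71 and −0.080, and −0.36 for Tap2. Each was the lowest value with 1 library left out, and the highest were 0.43, 0.72, 0.94, 0.40, 1.01, 0.70, 0.36, 0.60 and 0.95, and 0.73 for Tap2. Psmb9, at 0.01, was −0.023 with a pseudocount of 5, −0.12 against Pecam1, −0.085 against the median marker, −0.06 without C3 and −0.0050 without C4. Against the proteasome core, the median of −0.85 was −0.44 without H3 and −0.40 without H3 and H4.

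With 1 library left out, the ratio differences were −0.64 to −0.99 (Psmb8 over Psmb5), −0.65 to −1.18 (Psmb9 over Psmb6) and −0.66 to −1.11 (Psmb10 over Psmb7), and without H3 and H4 −0.45, −0.56 and −0.38; the test cannot then pass at 0.05. The cause of these changes was not tested beyond the libraries named. No paired analysis was possible because the labels pair no control with an endFoxf1+/- library. TPM hold no depth, so the precision of low values is unknown.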
